A study of Mus musculus with 14 samples.

Results

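The activity-induced genes Fos, Junb, Arc and Npas4 are 4 of the 7756 genes in the deposited hippocampal count table. They were picked by name, with their levels in these libraries already known, so their levels and fold changes are given below as descriptions without a test. All 4 lay above the minimum mean count of 40 in every group. Their levels in the IH and SH groups were lower than in the control group, with fitted log2 fold changes between -1.04 and -1.49. Between the IH and SH groups the same fold changes lay between -0.43 and 0.31, and between -0.68 and -0.048 without IH replicate 5, a library that stood apart.

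Hippocampal RNA from male wild-type C57BL/6J mice, 8 weeks old at the start, was sequenced in 4 control, 5 intermittent hypoxia (IH) and 5 sustained hypoxia (SH) libraries. Mice of the IH group breathed oxygen that alternated between 10% and 21% in cycles of 2 min, and mice of the SH group breathed 10% oxygen, both for 8 h daily over 28 days. Control mice stayed at 21% oxygen for 28 days. In the study's protocol, maze and passive avoidance tests came after the exposure and before the hippocampus was collected. The control libraries came from a preliminary experiment. Exposure and experiment therefore cannot be told apart in any comparison with the control group, whereas IH and SH libraries came from the same experiment. Whether the preliminary mice went through the behavioral tests, and how long after them tissue was taken, is not given in the sources used here. The labels do not state that each library is a separate mouse, so errors and p-values measure the spread between libraries.

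Activity-induced genes, also called immediate early genes, are switched on in neurons when synaptic input and calcium entry activate kinases that act on transcription factors already bound to DNA, such as CREB and SRF. Their transcripts rise within minutes and are short-lived, so their level in a tissue reports recent neuronal activity. In the hippocampus they are widely used as markers of neurons engaged by exploration and learning. Fos and Junb encode subunits of the dimeric transcription factor AP-1. Npas4 encodes a neuron-specific transcription factor that pairs with ARNT or ARNT2 and acts on inhibitory synapses. Arc encodes a postsynaptic protein that promotes the internalization of AMPA receptors.

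The promoter windows of the 3 genes with an entry in the RefSeq promoter table (build GRCm38.p6) are shown because this is where activity-dependent factors such as CREB are known to act. Each window runs 5′ to 3′ over 300 bases, from 250 bases before the annotated start to 50 bases after it. This is the RefSeq start, which can differ from the start in the GENCODE gene positions given below. The whole Npas4 window lies within the gene as placed by GENCODE. Capitals mark the core of the cAMP response element (CRE core; TGACG, or CGTCA where it lies on the opposite strand) and the TATA motif TATAA on the transcribed strand. Each window had 1 exact match on its chromosome in GRCm39, at chr12:85520414-85520713 on the plus strand for Fos, at chr8:85705328-85705627 on the minus strand for Junb and at chr19:5039950-5040249 on the minus strand for Npas4. Arc had no entry.
Fos: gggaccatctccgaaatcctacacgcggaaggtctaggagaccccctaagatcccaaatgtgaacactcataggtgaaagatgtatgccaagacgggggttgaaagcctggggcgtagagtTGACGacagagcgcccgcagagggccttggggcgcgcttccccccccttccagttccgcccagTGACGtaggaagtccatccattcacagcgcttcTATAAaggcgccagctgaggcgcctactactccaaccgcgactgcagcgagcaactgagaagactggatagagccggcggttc
Junb: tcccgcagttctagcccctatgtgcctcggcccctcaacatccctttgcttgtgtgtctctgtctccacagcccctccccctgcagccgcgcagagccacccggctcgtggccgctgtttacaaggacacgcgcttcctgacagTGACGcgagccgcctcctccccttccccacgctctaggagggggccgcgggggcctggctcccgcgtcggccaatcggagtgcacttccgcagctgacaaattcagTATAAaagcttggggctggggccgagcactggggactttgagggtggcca
Npas4: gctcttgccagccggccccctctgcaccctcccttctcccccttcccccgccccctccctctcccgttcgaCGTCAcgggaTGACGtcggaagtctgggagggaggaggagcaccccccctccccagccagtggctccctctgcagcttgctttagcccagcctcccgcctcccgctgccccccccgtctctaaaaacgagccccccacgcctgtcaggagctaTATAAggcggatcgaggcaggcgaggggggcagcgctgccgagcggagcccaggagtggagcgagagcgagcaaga

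All 3 windows held the CRE core and TATAA. The Fos window held the CRE core at -129 to -125 and at -66 to -62, with TATAA at -33 to -29 relative to the start. In the Npas4 window the CRE core stood at -179 to -175 on the opposite strand and at -169 to -165 on the transcribed strand, with TATAA at -26 to -22. The Junb window held the CRE core at -106 to -102 and TATAA at 1 to 5. Motifs were also searched on both strands for the full CRE (TGACGTCA, which holds the core on each strand), the AP-1 site (TGANTCA), the CCAAT box (CCAAT), the GC box (GGGCGG) and the CArG box bound by SRF. No match to the full CRE, the AP-1 site or the CArG box lay in the 3 windows. The Fos and Npas4 windows had a GC box each, and the Junb window had a CCAAT box at -36 to -32.

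Over all 32851 windows of the table, the CRE core was present in 20.8% and TATAA in 17.5%. Among the 7713 windows of genes in the count table these shares were 27.2% and 10.2%. Among the 42 windows of other activity-induced genes in the count table they were 59.5% and 23.8%. The remaining motifs were found in 1.79% (full CRE), 7.81% (AP-1 site), 37.4% (CCAAT box), 35.7% (GC box) and 1.63% (CArG box) of all windows. Among windows of genes in the count table the shares were 2.68%, 5.38%, 37.5%, 59.2% and 1.45% in the same order. Among the 42 windows of other activity-induced genes they were 11.9%, 4.76%, 31.0%, 59.5% and 14.3%. GC content was 58.7% in the Fos window, 65.3% in the Junb window and 69.3% in the Npas4 window.

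**Figure D1:**
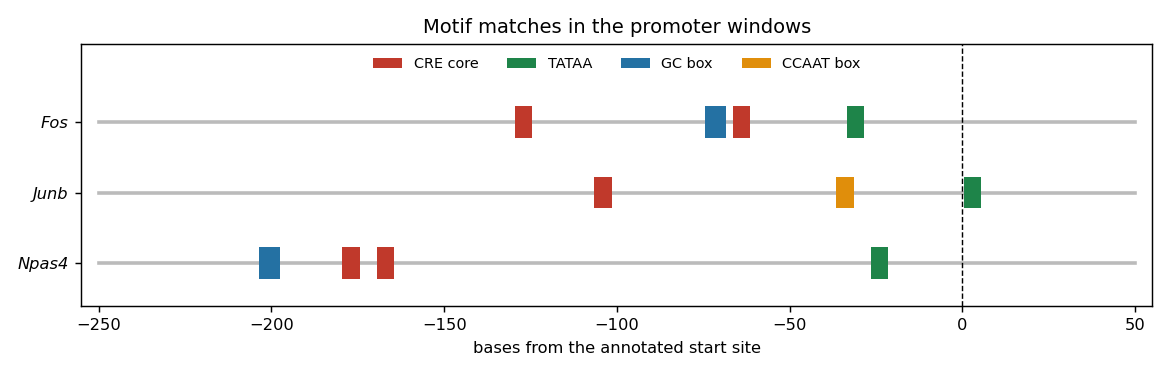
Motif matches in the promoter windows of Fos, Junb and Npas4, with the distance from the annotated start site in bases on the horizontal axis and a colored block for each match. The CRE core occurs at 2 places in the Fos and Npas4 windows and at 1 place in the Junb window, and TATAA occurs once in each.

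The libraries held between 7203659 and 11777101 counts over the genes of the table. The lowest count of a member was 103, for Fos in IH replicate 3, where counting error alone is 9.85% of the value. Junb and Arc had at least 646 and 1329 counts in every library. Levels are given as normalized counts, which are counts scaled to a common library size by the TMM factors of edgeR. IH replicate 5 stood apart, with high levels of all 4 genes within its group and the highest oligodendrocyte marker level of all libraries. Fold changes of the 4 genes that rest on the IH group are therefore also given without it. The same is done for the IH vs. control values of the 5 genes whose levels followed theirs most closely. For other named genes it is stated where leaving this library out changed a call. Hippocampal pyramidal neuron markers were present in every library (8 of 8 markers in the table), with a summed level of 5357 to 5617 CPM (the count scaled to a fixed library total) in control, 4381 to 5408 CPM in IH and 4253 to 5134 CPM in SH libraries.

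Fos (ENSMUSG00000021250.15, chr12:85520658-85524047, plus strand) encodes the AP-1 subunit that pairs with Jun proteins. Its normalized counts in control replicates 1 to 4 were 358, 555, 465.6 and 535. In IH replicates 1 to 5 they were 152, 147, 123, 148 and 276, and in SH replicates 1 to 5 they were 243, 189.5, 198, 252 and 257. Every control library lay above every IH and SH library. IH replicates 1 to 4 lay below the lowest SH library, whereas IH replicate 5 lay above the highest. Mean Fos levels were 478 ± 89.3 (SD, n = 4) in the control group, 169 ± 60.8 (SD, n = 5) in the IH group and 228 ± 31.7 (SD, n = 5) in the SH group. The fitted log2 fold change was -1.49 ± 0.20 (SE) for IH vs. control and -1.07 ± 0.20 for SH vs. control. Between IH and SH it was -0.43 ± 0.20. Without IH replicate 5 the Fos values were -1.75 for IH vs. control and -0.68 for IH vs. SH.

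Junb (ENSMUSG00000052837.9, chr8:85701113-85705359, minus strand) encodes a Jun family protein, a partner of Fos in AP-1. In control replicates 1 to 4 its normalized counts were 1457, 2338, 1872 and 2112. IH replicates 1 to 5 had 812, 816, 1027, 853 and 1092, and SH replicates 1 to 5 had 1055, 662, 865, 986 and 1059. The lowest control library lay above the highest library of either hypoxia group, and IH and SH libraries were interleaved. Means were 1945 ± 377 (SD, n = 4), 920.1 ± 130.5 (SD, n = 5) and 925 ± 167 (SD, n = 5) for control, IH and SH. Junb had a log2 fold change of -1.08 ± 0.15 (SE) for IH vs. control, -1.07 ± 0.15 for SH vs. control and -0.0083 ± 0.14 for IH vs. SH. Without IH replicate 5 it was -1.15 for IH vs. control and -0.079 for IH vs. SH. Its spread between libraries within groups was the smallest of the 4 genes (pooled SD 0.26 on the log2 scale).

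Npas4 (ENSMUSG00000045903.11, chr19:5034382-5040344, minus strand) had normalized counts of 861, 632, 733 and 508 in control replicates 1 to 4. IH replicates 1 to 5 had 159, 292, 277, 246 and 573. SH replicates 1 to 5 had 195, 203, 235, 284 and 341. All SH libraries lay below all control libraries. In the IH group, replicates 1 to 4 lay below every control library, and replicate 5 lay above control replicate 4. The means were 683 ± 149.8 (SD, n = 4) for control, 309 ± 156 (SD, n = 5) for IH and 251 ± 61.0 (SD, n = 5) for SH. For Npas4 the log2 fold change was -1.14 ± 0.28 (SE) for IH vs. control, or -1.49 without IH replicate 5. It was -1.44 ± 0.28 for SH vs. control. The IH vs. SH value of 0.31 ± 0.27 changed sign without IH replicate 5, to -0.048.

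Arc (ENSMUSG00000022602.16, chr15:74540932-74544419, minus strand) was the most variable of the 4 within groups (pooled SD 0.54 on the log2 scale). Its normalized counts in control replicates 1 to 4 were 2421.5, 5422, 4374 and 7003. They were 2159, 1478, 1877, 1899 and 3766 in IH replicates 1 to 5 and 2727, 1491, 1621, 2665 and 3159.7 in SH replicates 1 to 5. Control replicate 1 lay within the range of both hypoxia groups, and the other control libraries lay above every IH and SH library. Mean Arc levels were 4805 ± 1922 (SD, n = 4), 2236 ± 889 (SD, n = 5) and 2333 ± 736 (SD, n = 5) for control, IH and SH. The log2 fold change was -1.10 ± 0.30 (SE) for IH vs. control, -1.04 ± 0.30 for SH vs. control and -0.060 ± 0.29 for IH vs. SH. Without IH replicate 5 the Arc values were -1.37 for IH vs. control and -0.33 for IH vs. SH.

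**Figure D2:**
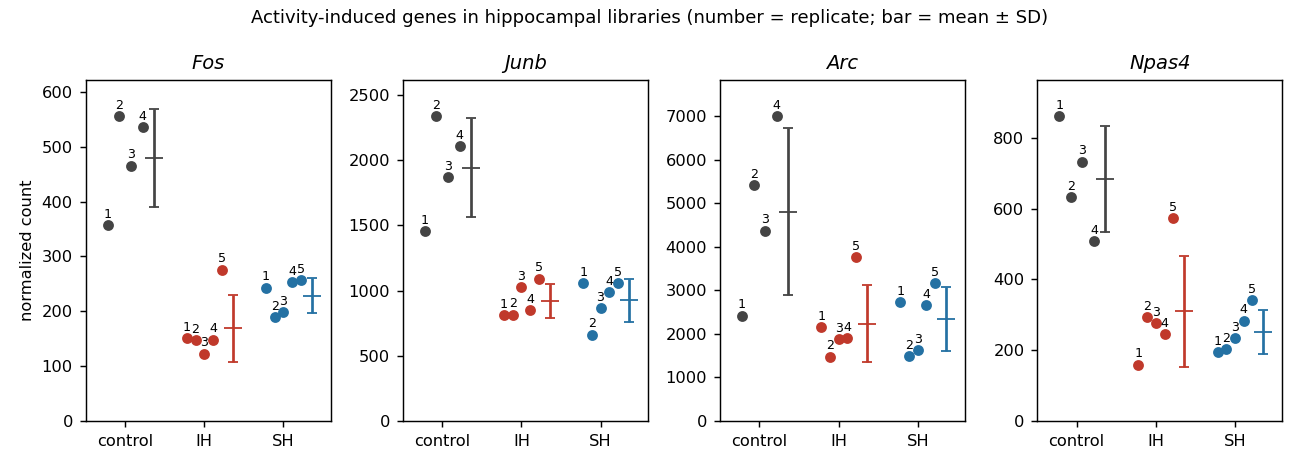
Normalized counts of Fos, Junb, Arc and Npas4 (vertical axes, starting at 0) in each control, IH and SH library, with the replicate number at each point and the group mean ± SD as a bar. Every control library lies above every hypoxia library for Fos and Junb, control replicate 1 overlaps the hypoxia groups for Arc, and IH replicate 5 reaches the control range for Arc and Npas4.

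For IH vs. SH, the comparison within the same experiment, the libraries of the groups overlapped for all 4 genes. Over all 7338 genes tested, groups did not overlap in 2.63% with IH higher and in 1.83% with IH lower. The median log2 fold change of the 4 genes was -0.034, and that of all genes tested was -0.0039. Fos was the gene with the lowest value and Npas4 the gene with the highest. Without IH replicate 5 all 4 values were below 0, with a median of -0.21 (-0.0072 over the 7307 genes tested then), and the groups did not overlap for Fos alone (IH lower, as in 2.75% of all genes tested, with IH higher in 3.69%).

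For IH vs. control, Fos and Junb did not overlap and were lower in IH, as were 7.48% of all genes tested, with 7.66% higher. The median over the 4 genes was -1.12, against -0.015 over all genes tested. Without IH replicate 5 all 4 did not overlap (8.98% of all genes tested with IH lower, 9.17% with IH higher). For SH vs. control, Fos, Junb and Npas4 did not overlap and were lower in SH, as were 10.6% of all genes tested (8.76% were higher), and the medians were -1.07 and 0.0035. Both comparisons share the control libraries. As ratios of group means, the IH level was 0.353 of the control level for Fos, 0.473 for Junb, 0.453 for Npas4 and 0.465 for Arc. The SH level was 0.476, 0.476, 0.368 and 0.485 of the control level for the same genes. In bulk tissue, fewer cells that express these genes and less RNA per cell cannot be told apart.

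Levels of different genes were compared per kilobase of the longest protein-coding transcript. In the control group Arc stood at 1572 ± 629 (SD, n = 4) normalized counts per kilobase, Junb at 1075 ± 208, Fos at 226 ± 42.2 and Npas4 at 189 ± 41.4. Arc and Junb overlapped in range, as did Fos and Npas4, and both of the former lay above both of the latter in every library. In the IH group the order of the lower pair was turned, with Npas4 at 85.4 ± 43.1 (SD, n = 5) and Fos at 79.96 ± 28.8 per kilobase, a difference within their spread. In the SH group Fos stood at 108 ± 15.0 (SD, n = 5) and Npas4 at 69.4 ± 16.8 per kilobase, with overlapping ranges. Arc and Junb were at 731 ± 291 and 509 ± 72.1 per kilobase in IH and at 763 ± 241 and 512 ± 92.3 in SH.

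The 4 genes were next compared across libraries within groups, after each group mean was subtracted on the log2(CPM + 1) scale. Fos and Arc deviated together most closely (Pearson r = 0.88, Spearman rho = 0.93, n = 14 libraries), followed by Junb and Arc (r = 0.84, rho = 0.80) and Fos and Junb (r = 0.69, rho = 0.75). Leaving out the 2 libraries farthest from the median of the former gene left these values at 0.83, 0.74 and 0.61. Npas4 deviated less with the others, with r = 0.46 for Fos, 0.27 for Junb and 0.21 for Arc, and rho = 0.090, 0.25 and 0.024. Without the 2 farthest libraries these r were 0.19, 0.46 and 0.063. These values are descriptions, since the points share libraries and depth.

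In all 4 control libraries Npas4 deviated in the direction opposite to Fos, Junb and Arc. Control replicate 1 was the lowest control library for Fos, Junb and Arc, with deviations of -0.39, -0.39 and -0.88, and the highest for Npas4, with 0.36. IH replicate 1 was the lowest IH library for Npas4, with a deviation of -0.80, while Arc stood at 0.026 there. In IH replicate 5 all 4 genes were above their group mean, by 0.73 for Fos, 0.26 for Junb, 0.83 for Arc and 0.99 for Npas4. Against the mean of IH replicates 1 to 4, its level was 1.94-fold for Fos, 1.25-fold for Junb, 2.03-fold for Arc and 2.35-fold for Npas4. The mean of the 6 pairwise r was 0.56, and it was 0.33 without IH replicate 5 and 0.64 without control replicate 1.

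**Figure D3:**
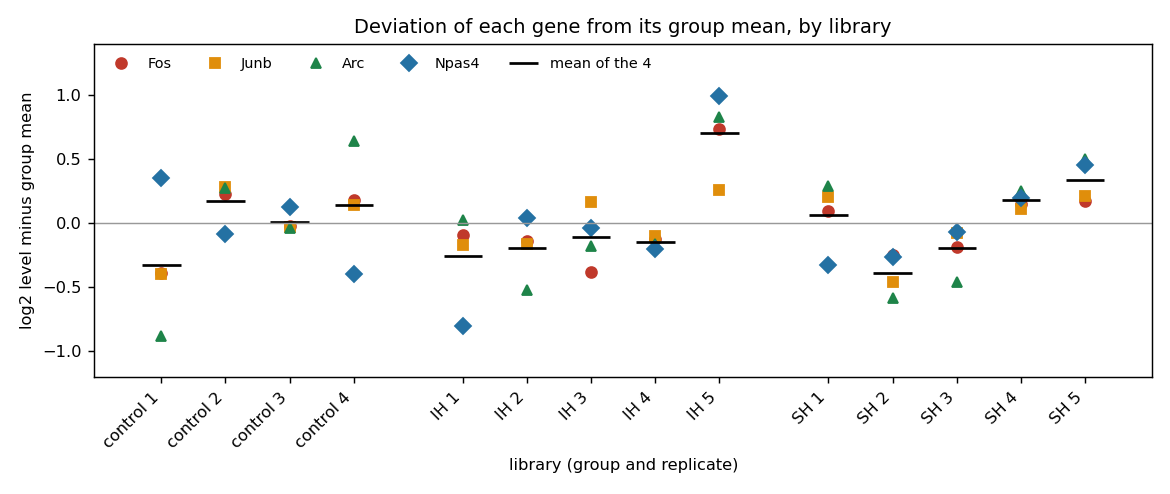
Deviation of each gene from its group mean on the log2 scale (vertical axis) in each library (horizontal axis), with a symbol per gene and a black line at the mean of the 4. IH replicate 5 has a mean deviation of 0.70, the highest of the 14 libraries, and Npas4 lies opposite to the other genes in all 4 control libraries.

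Levels of cell type markers also differed between libraries. The summed level of the oligodendrocyte markers (5 of 6 in the table, each present in every library) was 20266 CPM in IH replicate 5 and 8898 to 11344 CPM in the other IH libraries. It was 7751 to 11582 CPM in the control group and 8845 to 15368 CPM in the SH group, with SH replicates 4 and 5 highest. Its within-group deviation had r = 0.90 (rho = 0.87, n = 14) with the mean deviation of the 4 genes, and 0.78 without the 2 farthest libraries. The dentate granule neuron markers (5 of 6 in the table) ranged from 644 to 869 CPM in control, 844 to 1449 in IH and 849 to 1507 in SH libraries, with the same 3 libraries, IH replicate 5 and SH replicates 4 and 5, highest. Their r was 0.80 (rho = 0.76), and 0.65 without the 2 farthest. Part of the within-group spread of the 4 genes thus moved with these markers, and their part in the differences between groups was not tested. Between groups the medians of these markers ran the other way from the 4 genes, with 9202, 11287 and 12832 CPM for oligodendrocyte markers and 786, 998 and 896 CPM for dentate markers in control, IH and SH. Single pyramidal neuron markers were mixed, with 4 of 8 below 0 for IH vs. control (median log2 fold change -0.019) and 5 of 8 for SH vs. control (median -0.22). The pyramidal neuron sum ran the same way as the 4 genes, with medians of 5454, 4908 and 4761 CPM. By the ranges given above, every SH library lay below every control library and IH replicate 3 alone of the IH libraries reached the control range. The microglial sum (3 of 7 markers in the table) also had lower medians in both hypoxia groups, with 376, 342 and 306 CPM in control, IH and SH, and every SH library (271 to 348 CPM) lay below every control library (356 to 384 CPM). The part of the pyramidal and microglial levels in the differences of the 4 genes was not tested.

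**Figure D4:**
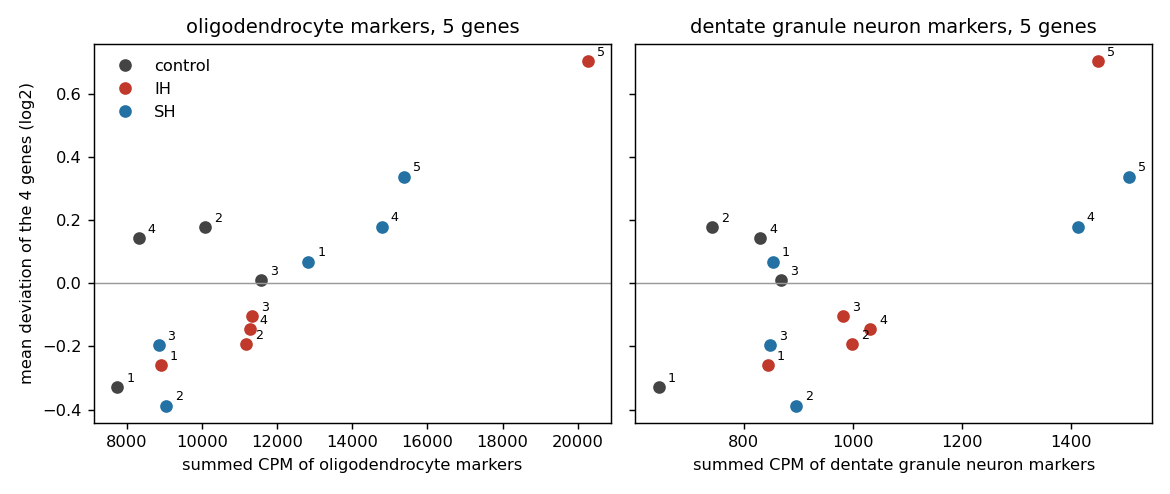
Mean within-group deviation of Fos, Junb, Arc and Npas4 on the log2 scale (vertical axis) against the summed CPM of oligodendrocyte markers (left) and dentate granule neuron markers (right), with the replicate number at each library. IH replicate 5 (20266 and 1449 CPM) and SH replicates 4 and 5 lie at the upper right of both panels, and the r values in the text were computed after group means were also subtracted from the marker levels.

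Other marker lists moved with the mean of the 4 genes as well. The single astrocyte marker tested had r = 0.77 with it (0.89 with Junb and 0.74 with Arc), the microglial sum had r = 0.60 and the thalamic and striatal sum had r = 0.51. The pyramidal neuron sum had r = 0.23 (rho = 0.39), which turned to -0.20 without the 2 farthest libraries, and the choroid plexus sum had 0.0060 (rho = 0.073), which turned to -0.14. Values were 0.0075, -0.015 and -0.21 for the erythrocyte, interneuron and endothelial sums. Choroid plexus markers, from the secretory epithelium of the ventricles, ranged from 438 to 13408 CPM in control, 552 to 8047 CPM in IH and 497 to 9884 CPM in SH libraries. The total count of the library had r = 0.39. Of the marker lists tested by edgeR (adjusted p under 0.05 over all genes), IH vs. SH had 1 endothelial marker of 6 lower in IH (2.37% called among all genes tested) and none from the other lists (8 pyramidal, 5 dentate, 5 interneuron, 1 astrocyte, 5 oligodendrocyte, 3 microglial, 10 choroid plexus, 5 thalamic and striatal and 4 erythrocyte markers). For IH vs. control, the dentate marker Prox1 was higher and all 4 erythrocyte markers tested were lower, with none from the other lists (10.8% called among all genes tested). The summed erythrocyte level was 325 to 355 CPM in control, 183 to 256 CPM in IH and 245 to 342 CPM in SH libraries, and its part in the levels of the 4 genes was not tested. For SH vs. control, 1 pyramidal marker and 2 microglial markers were lower, and Prox1, 1 interneuron and 2 endothelial markers were higher (20.6% called among all genes tested). Prox1 had a log2 fold change of 0.66 ± 0.16 (SE) for IH vs. control (edgeR adjusted p = 0.0169) and 0.81 ± 0.16 for SH vs. control (adjusted p = 0.00387). The IH call was lost without control replicate 1 (adjusted p = 0.0536) or control replicate 2 (adjusted p = 0.0574), with 0.000618 to 0.0574 over 23 alternatives.

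A list of 61 other activity-induced genes gives the surroundings of the 4. Of these, 41 were in the table and 38 passed the minimum count (Egr2, Baz1a and Pim1 did not), and the other 20, Bdnf among them, were not analysed here. The test was the quasi-likelihood test of edgeR, and p-values were adjusted over all 7338 genes by the Benjamini-Hochberg method. For IH vs. SH, 1 of 38 was higher (Dusp14) and none was lower, against 2.37% called among all genes tested (1.47% higher, 0.899% lower). At an unadjusted p under 0.05 the number was 2 of 38. The share of all genes at that limit was not counted, so this number is not read as a result. For IH vs. control, 4 were higher and 9 lower (10.8% called among all genes, 6.02% higher and 4.81% lower), with a median log2 fold change of -0.17. For SH vs. control, 5 were higher and 11 lower (20.6% called among all genes, 10.2% higher and 10.5% lower), with a median of -0.25. With the trends of each library with GC content and transcript length removed, 2 were higher and 6 lower for IH vs. control (5.7% called), and 2 higher and 4 lower for SH vs. control (6.61% called).

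Among 14 activity-induced transcription factors tested, 1 rose and 5 fell in each comparison with the control group, and none passed for IH vs. SH. Over all genes tested, 6.02% were called higher and 4.81% lower for IH vs. control, 10.2% and 10.5% for SH vs. control and 2.37% in either direction for IH vs. SH. The riser was Crem, a CREB relative, with log2 fold changes of 0.40 (edgeR adjusted p = 0.0463) and 0.50 (adjusted p = 0.00976) in IH and SH. Its IH call was lost in 13 of 23 alternatives (adjusted p 0.0263 to 0.213), among them leaving out any library except control replicate 3, IH replicate 4 and SH replicates 2 and 5. With GC and length trends removed the Crem values were 0.26 in IH and 0.35 in SH, and the SH call was lost as well (adjusted p = 0.0892). Btg2, Ier2, Egr4 and Jund fell in both, Nr4a1 in IH and Klf4 in SH (by 0.79 on the log2 scale, adjusted p = 0.0185, but 0.0677 without control replicate 4 and 0.0589 with GC and length trends removed, with 0.00494 to 0.0677 over 23 alternatives). Btg2, an antiproliferative transcriptional coregulator, fell from a control level of 604 ± 139 (SD, n = 4) to 294 ± 42.6 (SD, n = 5) with IH and 286 ± 21.6 (SD, n = 5) with SH. The fitted values for Btg2 were -1.04 ± 0.14 (SE, edgeR adjusted p = 0.000625) and -1.08 ± 0.14 (adjusted p = 0.000372). Ier2, an immediate early nuclear protein, fell by 0.93 on the log2 scale in IH (adjusted p = 0.00888) and by 1.10 in SH (adjusted p = 0.00209). Egr4, an early growth response zinc finger factor, fell by 0.98 in IH (edgeR adjusted p = 0.0168, and 0.0611 without control replicate 2, with 0.000543 to 0.0611 over its alternatives) and by 1.19 in SH (adjusted p = 0.00388).

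Of the close relatives of Fos and Junb, Jund passed the test and Jun and Fosb did not. Jund, a Jun family subunit of AP-1 and thus a partner of Fos, fell from 3937 ± 171 (SD, n = 4) to 2616 ± 123 (SD, n = 5) for IH and 2615 ± 317 (SD, n = 5) for SH, with a log2 fold change of -0.59 ± 0.077 (SE) in both (edgeR adjusted p = 0.000548 and 0.000372). With GC and length trends removed the Jund values shrank to -0.25 for IH vs. control (adjusted p = 0.00662) and -0.15 for SH vs. control, where the call was lost (adjusted p = 0.0774). Jun, the founding member of the family, stood at 2604 ± 279 (SD, n = 4), 2637 ± 409 (SD, n = 5) and 2329 ± 352 (SD, n = 5) for control, IH and SH, and did not pass in any comparison. Fosb, the closest relative of Fos, had -0.34 ± 0.18 (SE) for IH vs. control and -0.44 ± 0.18 for SH vs. control and did not pass (edgeR adjusted p = 0.202 and 0.0855), though the SH value passed with the choroid plexus covariate (-0.49, adjusted p = 0.0455, with 0.0455 to 0.272 over 23 alternatives). Without control replicate 4 the Fosb values shrank to -0.17 and -0.27. Egr1 stood at 3545 ± 563 (SD, n = 4), 2263 ± 724 and 2378 ± 808 (SD, n = 5 each) in control, IH and SH, with log2 fold changes of -0.65 ± 0.23 and -0.58 ± 0.23 (edgeR adjusted p = 0.0808 and 0.0896). Nr4a1, an orphan nuclear receptor, had -0.68 ± 0.19 for IH vs. control (edgeR adjusted p = 0.0361) and -0.54 ± 0.19 for SH vs. control (adjusted p = 0.0625). The SH value passed in 6 of 23 alternatives, which were DESeq2 (adjusted p = 0.0231), the replicate block (0.0220), the choroid plexus covariate (0.0418) and leaving out control replicate 1 (0.0305), IH replicate 5 (0.0360) or SH replicate 1 (0.0493). The IH call of Nr4a1 was lost in 7 of 23 alternatives (adjusted p 0.00429 to 0.110), among them leaving out control replicate 2 or 4 or any of IH replicates 1 to 4. Egr1 passed for IH vs. control without IH replicate 5 (adjusted p = 0.0259, with 0.00233 to 0.184 over 23 alternatives) and for SH vs. control without SH replicate 5 (adjusted p = 0.0246, with 0.00208 to 0.288). With the replicate block Egr1 passed in both, at -0.85 for IH (adjusted p = 0.00233) and -0.77 for SH (adjusted p = 0.00208).

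Effectors and feedback genes moved in both directions. Of 24 tested, 3 rose and 4 fell for IH vs. control, and 4 rose and 6 fell for SH vs. control (10.8% and 20.6% called among all genes tested). Dusp1, a phosphatase that switches off MAP kinases, fell from 527 ± 82.7 (SD, n = 4) to 277 ± 54.4 (SD, n = 5) for IH and 325 ± 35.1 (SD, n = 5) for SH, by 0.93 and 0.70 on the log2 scale (edgeR adjusted p = 0.00139 and 0.00465). Lmna, which encodes nuclear lamins A and C, fell by 0.37 and 0.34 (adjusted p = 0.0104 and 0.00893), and with GC and length trends removed the falls were 0.24 and 0.15 and the SH call was lost (adjusted p = 0.180). Inhba, the activin beta A subunit, rose from 167 ± 40.3 (SD, n = 4) to 347 ± 50.8 (SD, n = 5) for IH and 356 ± 72.7 (SD, n = 5) for SH, by 1.06 ± 0.18 and 1.10 ± 0.18 (SE) on the log2 scale (edgeR adjusted p = 0.00302 and 0.00156). Homer1, a postsynaptic scaffold gene with a short activity-induced form that is not separated here, rose by 0.34 and 0.37 (adjusted p = 0.0105 and 0.00379), and both calls were lost with GC and length trends removed (0.18 and 0.20, adjusted p = 0.153 and 0.123). Dusp14, another dual specificity phosphatase, was higher in IH than in SH by 0.43 ± 0.10 (edgeR adjusted p = 0.0397), a call lost in 15 of 23 alternatives (adjusted p 0.00892 to 0.102), among them leaving out any library except SH replicates 4 and 5. Crem, Klf4 and Dusp14 were picked for mention after their values were seen.

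**Figure D5:**
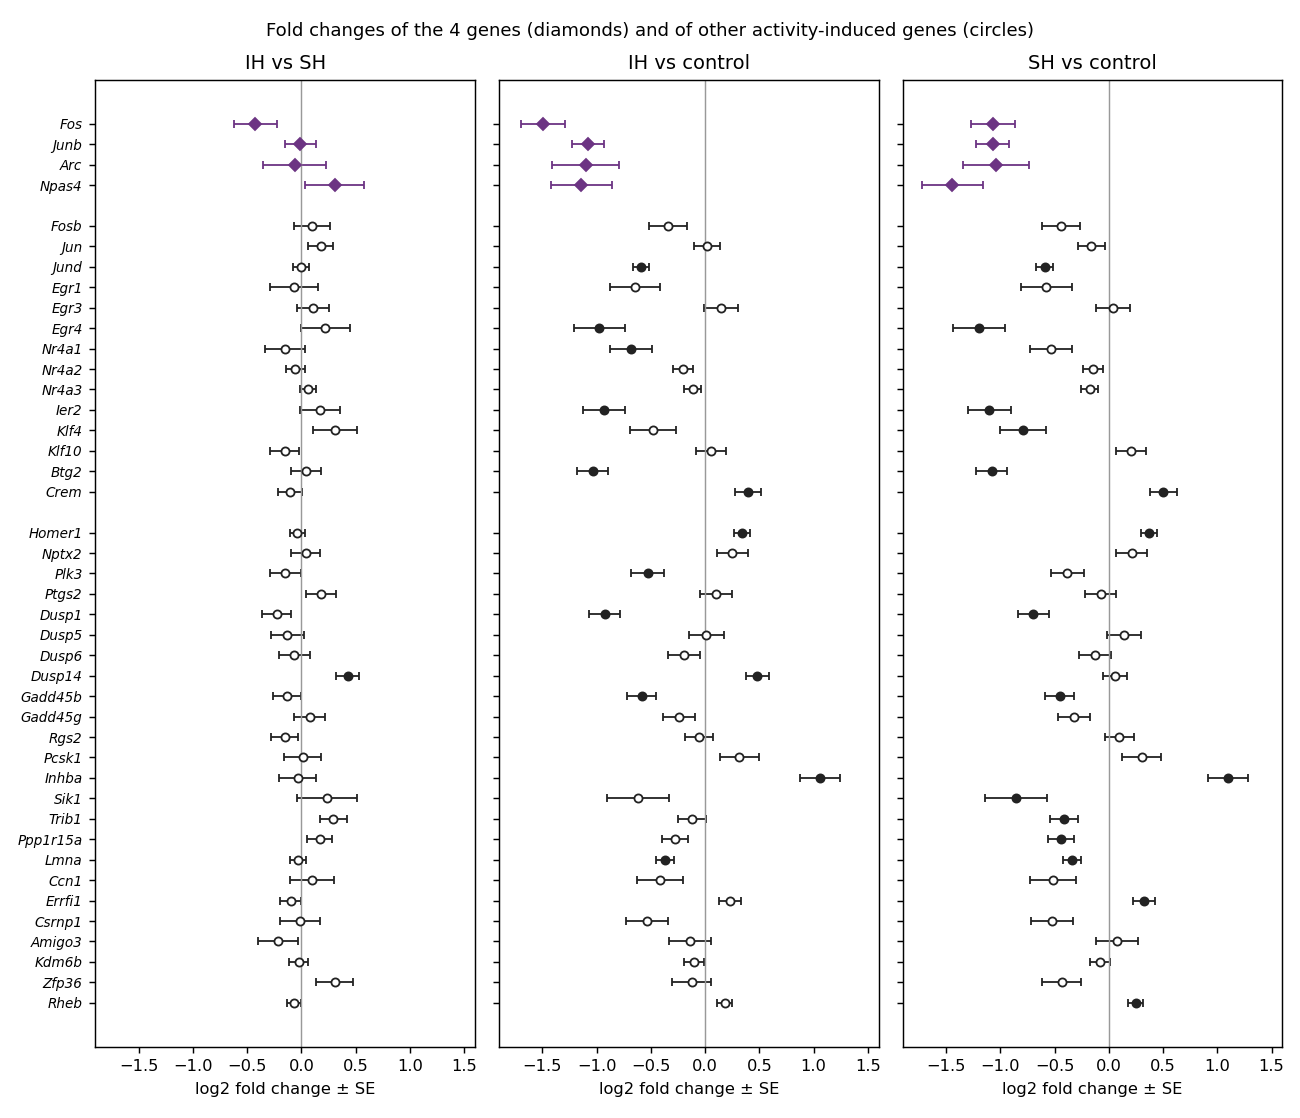
Fitted log2 fold change ± SE (horizontal axes) of Fos, Junb, Arc and Npas4 (diamonds, not tested) and of the 38 other activity-induced genes tested (circles, filled where the edgeR adjusted p is under 0.05) for IH vs. SH, IH vs. control and SH vs. control. The 4 genes lie between -1.49 and -1.04 in both comparisons with the control group, where the other genes lie on both sides of 0.

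Binding partners of the 4 proteins and the signalling genes upstream of them were tested in the same fit. Of 5 partners, Jund fell in both comparisons with the control group, Arnt rose for IH vs. control and none passed for IH vs. SH (10.8%, 20.6% and 2.37% called among all genes tested for IH vs. control, SH vs. control and IH vs. SH). Arnt, a partner of NPAS4, rose by 0.29 ± 0.071 (SE, edgeR adjusted p = 0.0183, and 0.0517 without control replicate 1, with 0.00398 to 0.0600 over 23 alternatives). Arnt2, the brain-enriched form, had -0.25 ± 0.098 for IH vs. control (adjusted p = 0.0994). Of 17 genes that signal from the synapse to the nucleus, 3 rose and 4 fell for IH vs. control, 3 rose and 5 fell for SH vs. control and 1 was higher in IH than in SH, beside the same shares over all genes tested. Srf, which encodes the factor that binds the CArG box, fell from 1369.5 ± 34.5 (SD, n = 4) to 1006 ± 89.9 (SD, n = 5) for IH and 1101 ± 70.5 (SD, n = 5) for SH, by 0.45 and 0.31 on the log2 scale (edgeR adjusted p = 0.00203 and 0.00806), and its SH call was lost with GC and length trends removed (a fall of 0.11, adjusted p = 0.374). Creb1, which encodes CREB, the factor that binds the CRE, rose by 0.35 and 0.39 (adjusted p = 0.00857 and 0.0031), and its values were 0.18 and 0.21 with GC and length trends removed, where the IH call was lost (adjusted p = 0.0681). Elk1, a cofactor of SRF, was higher in IH than in SH by 0.29 ± 0.070 (edgeR adjusted p = 0.0403), a call lost in 13 of 23 alternatives (adjusted p 0.00952 to 0.107), among them leaving out any library except control replicate 1 and SH replicates 4 and 5, and rose for IH vs. control by 0.41 (adjusted p = 0.00379). Map2k2, a kinase of the MAP kinase cascade, fell by 0.26 in IH (adjusted p = 0.0298) and by 0.43 in SH (adjusted p = 0.00156). Its IH call was lost in 6 of 23 alternatives (adjusted p 0.0150 to 0.156), among them leaving out control replicate 1 or 4 or IH replicate 2, 4 or 5. With GC and length trends removed its falls were 0.15 in IH and 0.26 in SH (adjusted p = 0.156 and 0.0171).

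The genes whose within-group deviations were most like the mean of the 4 were Spart (spartin; r = 0.94), Rab31 (a small GTPase; r = 0.91), E130308A19Rik (r = 0.91), Mal (a protein of compact myelin; r = 0.91) and Fgfr2 (a fibroblast growth factor receptor; r = 0.91), over 14 libraries and 7334 genes. Fitted log2 fold changes of these 5 genes against the control group were positive in IH and SH, where those of the 4 were negative. They were 0.28 and 0.34 for Spart, 0.59 and 0.33 for Mal and 0.31 and 0.37 for Fgfr2. Without IH replicate 5 the IH values were 0.15 for Spart, 0.35 for Mal and 0.19 for Fgfr2. For Rab31 and E130308A19Rik the IH values were 0.27 and 0.43, and 0.15 and 0.25 without this library. Of the 5 genes, Fgfr2 passed for SH vs. control (edgeR adjusted p = 0.0449, a call lost in 13 of 23 alternatives, with 0.0118 to 0.133, among them leaving out any library except control replicate 4, IH replicates 3 and 5 and SH replicate 3). Spart did not pass for SH vs. control (adjusted p = 0.0695) but did in 5 of 23 alternatives (0.0261 to 0.179 over all of them), which were DESeq2, library total scaling, the 2 groups compared alone and leaving out IH replicate 5 or SH replicate 3. The other activity-induced genes nearest to the 4 by this measure were Nr4a1 (r = 0.91, rank 7), Egr4 (r = 0.89, rank 13), Egr1 (r = 0.88, rank 23) and Egr3 (r = 0.84, rank 64). Of the 38 other activity-induced genes, 18 had r over 0.5 (47.4%, median 0.46), against 966 of 7334 genes tested (13.2%, median 0.018). These r were not recomputed by rank or without IH replicate 5, the library with the highest mean deviation of the 4. Jun had r = -0.69 and Pcsk1, a prohormone convertase, had r = -0.79.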

How the data were processed

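The authors sequenced poly(A) RNA from mouse hippocampus with a strand-keeping kit. Per the labels, reads were handled with bcl2fastq 2.19, fastp 0.23.4, HISAT2 2.2.1 (GRCm39) and StringTie 2.2.1. The deposited table holds the authors' estimated counts per gene, without normalization, and 10 genes with values that were not whole were rounded. The authors kept protein-coding genes above a low-signal limit that differed from control, so shares and adjusted p-values hold within these 7756 genes.

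Groups came from the sample labels, with 4 control, 5 IH and 5 SH libraries. All groups were fitted together with edgeR 4.0.16 (R 4.3.3; TMM factors, quasi-likelihood test) on 7338 genes, those whose mean count reached 40 in each group, with Benjamini-Hochberg adjustment and a threshold of 0.05. Levels are normalized counts, and correlations used log2(CPM + 1). Named genes are the 4 members, up to 4 genes with the smallest adjusted p of each activity, partner and signalling list, 10 genes chosen by name (Jun, Jund, Fosb, Egr1, Nr4a1, Homer1, Bdnf, Arnt2, Srf and Creb1) and the 5 genes most like the members. Crem, Klf4, Dusp14, Prox1, Egr3 and Pcsk1 were named outside these rules, for their values. Members, lists and tests were chosen with earlier results of these data known. Alternatives used DESeq2 1.42.0, other scalings and filters, the groups compared alone, a replicate block, a choroid plexus covariate, GC and length trends removed by loess offsets (7212 genes) and leaving out each library. Replicate numbers were not treated as pairs in the main fit (13 same-numbered pairs, r = -0.28 to 0.47, not compared with differently numbered pairs). No pair of libraries within a group agreed within counting noise. Tested on simulated IH vs. SH counts with 200 of 7338 genes changed by a log2 fold change of 1, the fit recovered 82.5% of them with 5 false calls. That change is larger than the IH vs. SH values named here, and simulated counts were drawn independently for each gene. The recovery of smaller changes was not tested. Gene positions and lengths came from the GENCODE annotation of GRCm39, matched by symbol.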

Additional observations from a re-analysis of the deposited data

Results flagged for a closer look

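In 12 of 93 groups of 4 or 5 libraries examined, 1 library lay farther from the rest than Dixon's 95% limit for a group of its size allows. Chance would give about 4.65 in unselected, independent groups. These groups were neither, because they share libraries and include genes chosen with their values known, so the number 12 is not read against it. The Fos level of IH replicate 5 was 276 normalized counts, with the other IH libraries between 123 and 152. For Egr4 this library stood at 731 (the others 380.5 to 457) and for Nr4a1 at 1760.0 (the others 1028 to 1189). Spart, E130308A19Rik, Mal and Fgfr2 were named because they follow the mean of Fos, Junb, Arc and Npas4, which is highest in IH replicate 5, so their high values there repeat that choice. Levels in this library were 1304 for Spart (the others 818 to 949), 502 for E130308A19Rik (284 to 318), 8532.5 for Mal (4094 to 4987) and 1660.3 for Fgfr2 (1071 to 1185). The oligodendrocyte marker sum was also highest in this library, as given above, and its part in these values was not tested.

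In the control group, replicate 2 was high for Ier2 at 281 normalized counts (the others 182 to 198), replicate 1 was low for Dusp1 at 403 (the others 563 to 574) and replicate 4 was high for Srf at 1421 (the others 1349.5 to 1354). IH replicate 3 was low for Lmna at 575 normalized counts (the others 655 to 687) and for Creb1 at 1418 (the others 1554 to 1578).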

How the results depend on the processing

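Fold changes of Fos, Junb, Arc and Npas4 against the control group kept their sign under all 23 alternatives. Junb for SH vs. control moved from -1.07 to -0.76 with GC and length trends removed, and no other member value moved by more than the pooled spread between libraries. For IH vs. SH, the sign of Junb changed under 6 alternatives, that of Arc under 3 and that of Npas4 under 1, which was without IH replicate 5. The Dusp14 call, the 1 call among other activity-induced genes for IH vs. SH, gave way to 0 calls with the replicate block, with the choroid plexus covariate and with the 2 groups compared alone, and to 0 to 1 when a library was left out. For IH vs. control the 13 calls (10.8% called among all genes tested) became 8 with GC and length trends removed (5.7%). They became 9 to 13 when a library was left out, with the fewest without control replicate 2. For SH vs. control the 16 calls (20.6% called among all genes tested) became 6 with these trends removed (6.61%) and 12 to 19 when a library was left out. Without IH replicate 5, the shares called among all genes tested were 8.18% for IH vs. control and 21.6% for SH vs. control. The replicate block gave 14 calls for IH vs. control and 17 for SH vs. control (10.1% and 19.7% called among all genes tested). Of 13 same-numbered pairs of libraries, 6 had r over 0.1, and whether replicate numbers pair the libraries was not tested. Counted next were only the values of other named genes that passed or lay away from 0 in the main fit. Of these under the alternatives, 1076 kept their direction and call, 81 lost the call, 16 gained it and 0 turned. Values near 0 were left out of this count, so few could turn. The mean pairwise r of the 4 genes, 0.56, ranged from 0.33 to 0.64 when a library was left out. Depth limits Fos most, with a counting error of up to 9.85% in a library. The causes of these changes were not tested.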
